A study of Mus musculus with 26 samples.

Results

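Alcam, Fat3, Ncam1, Ncam2, L1cam, Nrcam, Nfasc, Cadm1, Cntn1 and Chl1 encode adhesion molecules of the mouse nervous system, and their ribosome footprints and RNA were followed in the caudate putamen of 3 LRRK2 mouse models. The genes were picked by symbol. Alcam and Fat3 head the group because of their translation efficiency (TE) in GS LRRK2 TG mice, so every value from that comparison is given as a description, with no test. The authors' tables list 9 of the 10 genes, each as 1 transcript, among 8576 transcripts in each transgenic table and 9561 in the LRRK2 KO table. Cadm1 is not listed and was not analysed here.

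As background, most of these proteins carry immunoglobulin domains on the cell surface and bind the same or a related molecule on a neighbouring cell. L1cam, Nrcam, Nfasc and Chl1 form the L1 family, whose cytoplasmic tails attach to ankyrin and, through it, to the spectrin skeleton. Ncam1 and Ncam2 bind their own kind and act in the outgrowth and bundling of axons, Cntn1 is held by a lipid anchor and meets Nfasc where myelin joins the axon, and Alcam guides axons and also joins endothelial cells. Fat3 is of another build, a giant cadherin that shapes the dendrites of retinal neurons.

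The study set ribosome footprints, the mRNA fragments that ribosomes shield from RNase, beside total RNA freed of rRNA, to ask how LRRK2 changes translation in the striatum. Each library came from caudate putamen pooled from 3 mice of mixed sex, and the labels give the strain C57BL/6 and an age of 3 months for every group. GS LRRK2 TG mice carry LRRK2 with the G2019S substitution, which raises its kinase activity, and GS/DA LRRK2 TG mice carry G2019S/D1994A LRRK2, in which a second substitution disables the kinase. Both transgenes are of the Tet-off type and driven by CaMKII-tTA, which is active in forebrain neurons, from 1 high copy number line each, and were kept silent with doxycycline chow until weaning. Their controls were non-TG mice, with 3 libraries per assay in the labels for both transgenic comparisons. Which of these enter which table is not given, so the comparisons are treated as sharing control samples. LRRK2 KO mice, in which the gene is knocked out, were compared with wild-type (WT) mice.

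The values below are normalized reads, the authors' DESeq scale, in single libraries recovered from the deposited group means, 2 per group and assay. The libraries carry no replicate number, so those of a group are given in the order of the library with fewer and the library with more reads in all. The non-TG control means of the GS LRRK2 TG table could not be taken apart, so this group has means without a spread, and how many libraries each of them averages is not known. Footprint libraries held 6731150 to 15954039 reads in coding sequences in the transgenic tables and 2831475 to 5952826 in the LRRK2 KO table, and RNA libraries held 3132940 to 12829104. The smallest read number behind a recovered value of a member was 31, for Ncam2 RNA in a GS LRRK2 TG library. TE is log2 footprints minus log2 RNA. Each table was normalized on its own, so levels are compared within a table only.

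Lrrk2 itself was read first in every library. In the GS LRRK2 TG table, Lrrk2 footprints were 2524 normalized reads in the control mean and 7052 and 3320 in the transgenic libraries, and Lrrk2 RNA was 2105 in the control mean and 214 and 3550 in the transgenic libraries. For GS/DA LRRK2 TG, Lrrk2 footprints were 1224 and 1445 in control and 4766 and 7267 in transgenic libraries, with RNA of 560 and 5233 in control and 5038 and 404 in transgenic libraries. Every transgenic library lay above its control in Lrrk2 footprints, while for RNA the libraries of 1 group lay so far apart that the groups overlapped. In the LRRK2 KO table, Lrrk2 footprints were 690 and 400 in WT and 150 and 102 in LRRK2 KO libraries, and Lrrk2 RNA was 733 and 1278 in WT and 270 and 423 in LRRK2 KO libraries. Both LRRK2 KO libraries lay below both WT libraries in each assay. In limma with Benjamini-Hochberg adjustment over all transcripts, the log2 change of Lrrk2 footprints was -2.00 (SE 0.36, n = 2 libraries per group) in LRRK2 KO with an adjusted p of 1, and 4.65e-28 with the replicate block, the span of all settings. For GS/DA LRRK2 TG it was 2.14 (SE 0.22), with an adjusted p of 0.577, and 2.66e-08 with the replicate block, over a span of 2.53e-22 to 0.835. The replicate block pairs a control and a genotype library that share the same difference between libraries, a pairing read from the values. These p-values measure the spread between libraries only, each of them a pool of mice.

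The labelled tissue was checked against its markers. Of 16 markers of striatal projection neurons the tables list 14, with Ppp1r1b (the phosphatase inhibitor DARPP-32) the most abundant, and their summed footprints came to 128583 normalized reads in the control mean of the GS LRRK2 TG table. Of 16 genes of choroid plexus and meninges only Ttr and Clic6 are listed, of 10 genes of endothelium and pericytes only Vtn, and no listed gene of any marker list stood at 0 in a recovered library. In bulk tissue, fewer cells of a type and less RNA per cell cannot be told apart.

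The RNA libraries of the transgenic tables stood far apart, and the adhesion genes with them. The SD over all transcripts of the log2 ratio between both RNA libraries was 1.7 in GS LRRK2 TG, and 1.44 and 1.68 in the control and the transgenic libraries of the GS/DA comparison. For footprints it was 0.379, 0.284 and 0.297. Fat3 RNA was 213 and 4468 normalized reads in the GS LRRK2 TG libraries, 537 and 8507 in the controls of GS/DA LRRK2 TG and 11749 and 426 in GS/DA LRRK2 TG itself. Thus each of these groups has 1 library with little Fat3 RNA and 1 with much, and in the GS/DA comparison 0.902% and 0.472% of transcripts had RNA libraries at least as far apart. Ncam2 RNA behaved alike, with 43.4 and 1560 in GS LRRK2 TG, 117 and 2067 in the controls and 1928 and 75.7 in GS/DA LRRK2 TG. In the opposite direction, Nfasc RNA was 2722 and 1127, then 2826 and 931, then 1067 and 3139, so the library low in Fat3 and Ncam2 was the one high in Nfasc.

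**Figure D1:**
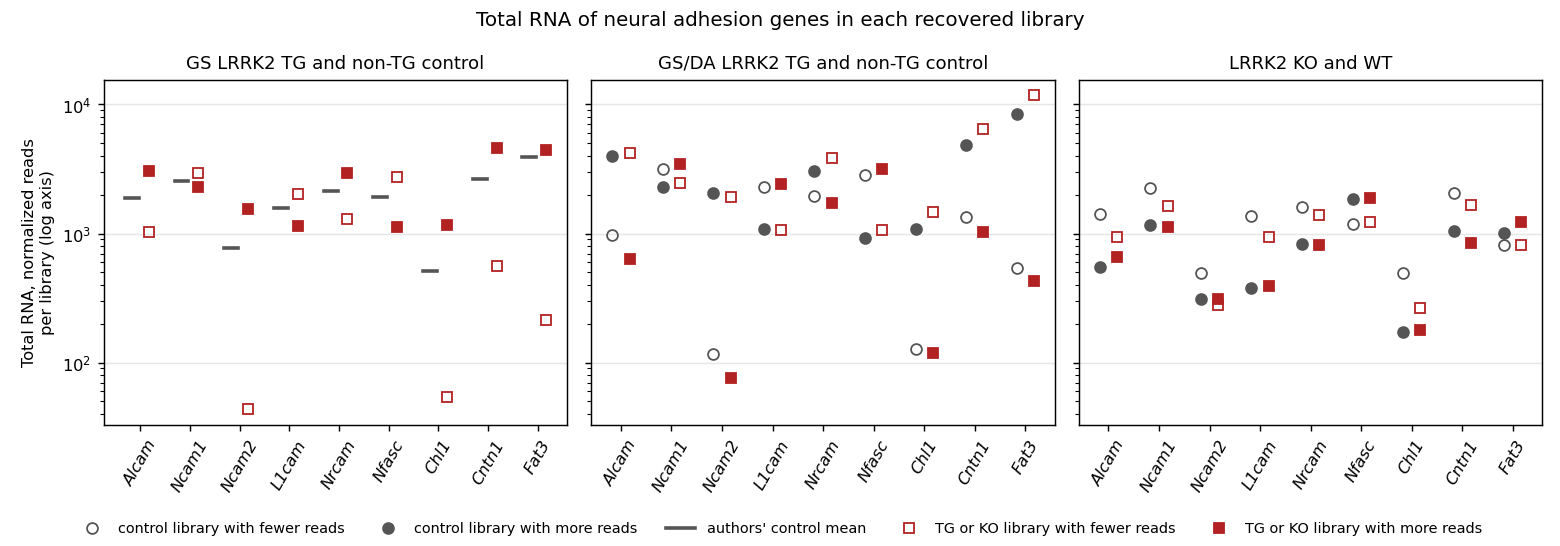
Total RNA of the 9 listed adhesion genes in normalized reads per library (vertical log axis) in the 3 comparisons; circles are control libraries, squares TG or KO libraries, open symbols the library with fewer reads in all, and bars the control mean where libraries could not be recovered. Fat3 stands at 213 and 4468 in GS LRRK2 TG and at 11749 and 426 in GS/DA LRRK2 TG, while in the LRRK2 KO table its libraries run from 809 to 1230.

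The size of this gap went with base composition. Ncam2, Chl1 and Alcam have a GC content of 44.3%, 44.0% and 45.1% in their coding sequence, and L1cam, Ncam1 and Nfasc 53.7%, 55.5% and 55.9%, around a median of 52.8% over the LRRK2 KO table. The 6 members of lower GC content, up to Cntn1 with 49.3%, lay on one side of 0 and the 3 of higher GC content on the other in each of these 3 groups. Spearman's rho between GC content and the RNA log2 ratio was -0.767, -0.817 and 0.767 over the 9 members, and -0.791, -0.778 and 0.801 over 8200, 8178 and 8225 transcripts, given as a description across genes that share the same libraries. The members were less orderly in the LRRK2 KO table, where rho over the 9 was 0.333 in WT and -0.0667 in LRRK2 KO, and -0.0369 and -0.273 over all transcripts. Gaps between footprint libraries also went with GC content. In the same 3 transgenic table groups, rho was 0.583, -0.833 and -0.667 over the members and 0.306, -0.434 and -0.468 over all transcripts. In WT and LRRK2 KO footprints it was -0.0333 and 0.0667 over the members and 0.541 and 0.233 over all transcripts.

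**Figure D2:**
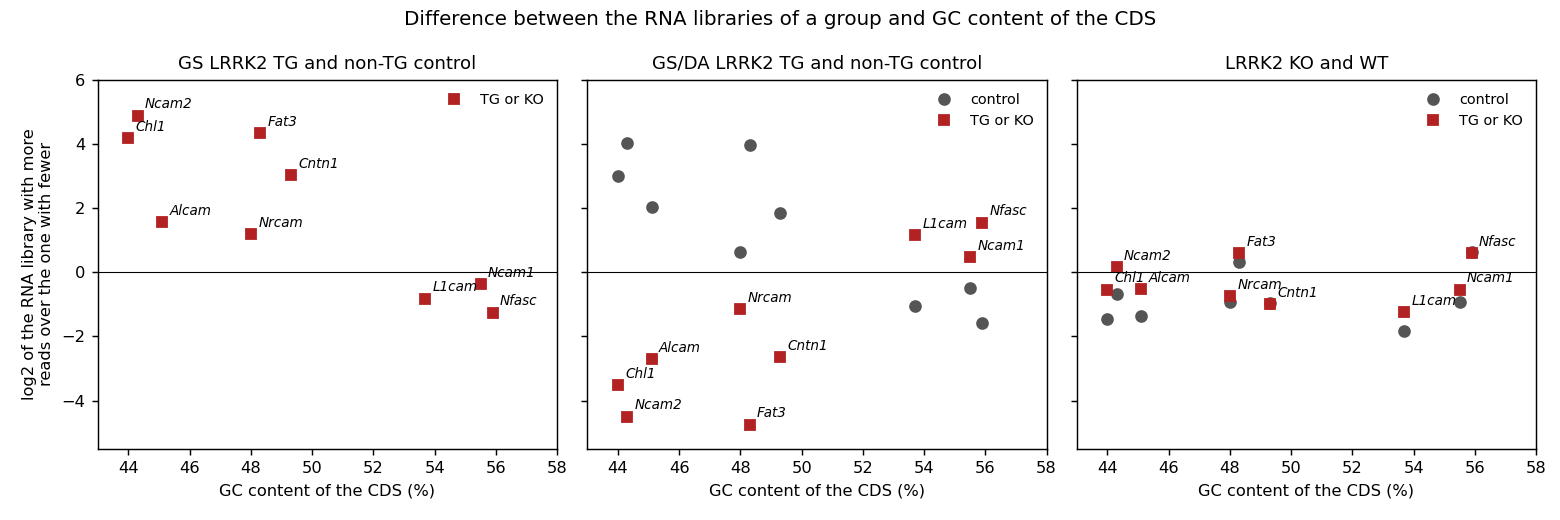
Log2 ratio between the RNA libraries of a group (the one with more reads over the one with fewer; vertical axis) against GC content of the coding sequence in percent (horizontal axis) for the 9 listed adhesion genes; circles are controls, squares are TG or KO groups. In the transgenic tables the genes from Chl1 to Cntn1 (49.3% GC) sit on one side of 0 and L1cam, Ncam1 and Nfasc on the other, with Fat3 at 4.33 in GS LRRK2 TG and -4.75 in GS/DA LRRK2 TG.

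Per length, Alcam had the most footprints of the group and Fat3 the fewest. In footprints per 1000 bases of coding sequence, the control mean of the GS LRRK2 TG table was 2520 for Alcam, 1510 for Ncam1, 1390 for Cntn1, 809 for L1cam, 790 for Nrcam, 417 for Nfasc, 379 for Ncam2, 306 for Chl1 and 87.1 for Fat3. The control libraries of GS/DA LRRK2 TG gave Alcam 3600 and 3240 footprints per 1000 bases, both above Ncam1 with 1990 and 1740. Fat3 was lowest with 113 and 103, below Chl1 with 335 and 382. The neighbours Ncam1 and Cntn1, Nrcam and L1cam, and Ncam2 and Nfasc overlapped between libraries in that order. In the LRRK2 KO table Alcam again had the highest WT mean (468 footprints per 1000 bases, libraries 301 and 635) and Fat3 the lowest (27.8, libraries 14.5 and 41.2), and of the neighbours in the order only Chl1 and Fat3 did not overlap. In RNA per 1000 bases, Alcam also had the highest control mean in each table, with 1070, 1420 and 561, but where control libraries were recovered all neighbours in the order overlapped.

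The TE of the control means differed between members. In the GS LRRK2 TG table, TE of the control means was 1.23 for Alcam, 1.18 for Chl1, 1.03 for Ncam1 and 0.96 for L1cam, at percentiles 96.7, 96.1, 94.5 and 93.3 of all transcripts, whose median was -0.17. Fat3, with the longest coding sequence of the group (13904 bases against 1755 for Alcam), had a control TE of -1.69 at percentile 5.1. In the controls of GS/DA LRRK2 TG Alcam had a TE of 1.27 and Fat3 one of -1.59, at percentiles 94.8 and 4.1. These values turn on 1 RNA library: with the control RNA library with fewer reads alone, Fat3 had a TE of 1.41 to 1.55 and Alcam 2.56 to 2.71 over the footprint libraries, and with the other, Fat3 -2.57 to -2.43 and Alcam 0.50 to 0.65. The GS LRRK2 TG table gives no such spread for its controls. In the WT means Chl1 had a TE of 0.03 (percentile 88.5), Alcam -0.26 (74.4), Fat3 -1.23 (21.4) and Nfasc -1.41 (16.0), around a median of -0.64. Over every combination of 1 WT footprint and 1 WT RNA library, the TE of Chl1 ran from -1.45 to 1.53 and that of Alcam from -1.42 to 1.02. Fat3 (-2.32 to -0.50) and Nfasc (-2.05 to -0.77) stayed below 0. Each lysate was split for both assays, but the pairs were not inferred. The ranges for WT and for the GS/DA controls therefore include combinations of different pools, and need not be the spread of TE between pools.

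In the mm9 build, Alcam lies at chr16:52249109-52454187 on the minus strand and Ncam2 on the plus strand of the same chromosome at chr16:81200942-81624530. Fat3 and Ncam1 lie on the minus strand of chromosome 9, at chr9:15714649-16182681 and chr9:49310257-49607027. Among the L1 family, L1cam is at chrX:71099117-71141444 and Nfasc at chr1:134461268-134638374, both on the minus strand, and Nrcam at chr12:45429872-45702951 and Chl1 at chr6:103460870-103699671, both on the plus strand, as is Cntn1 at chr15:91881596-92172398. In the deposited folding energies of the 5′UTR, where lower values stand for firmer predicted folds, Alcam had the lowest of the group, -235.64 kcal/mol, at percentile 15.0 of all transcripts. Nrcam followed with -208.4, Chl1 with -192.3 and Nfasc with -174.85 kcal/mol, and Fat3 had the highest, -67.6, against a median of -90.4 kcal/mol.

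Start sites are shown because they are the stretch of each mRNA where a ribosome begins the coding sequence, and they come from the longest coding transcript of each gene in the GENCODE vM1 annotation of the NCBIM37 assembly, which is mm9. Capitals mark the third base before the start codon, the start codon itself and the base after it. The sites lie at chr16:52452573-52452590 (minus strand) for Alcam, chr16:81201147-81201164 (plus) for Ncam2, chrX:71115138-71115155 (minus) for L1cam, chr12:45633529-45633546 (plus) for Nrcam, chr1:134539340-134539357 (minus) for Nfasc, chr15:92046806-92046823 (plus) for Cntn1 and chr6:103591953-103591970 (plus) for Chl1. The annotated transcripts of Fat3 and Ncam1 hold fewer than 12 bases before the start codon, so no site is shown for them.
Alcam: aggaggaggAatATGGca
Ncam2: cacgtcctgAacATGAgc
L1cam: gctgacagcAagATGGtc
Nrcam: ggagtgcagCtgATGCag
Nfasc: ctggtgctgAggATGGcc
Cntn1: attcaacaaAagATGAaa
Chl1: cctttctgaGgaATGAtg
Alcam, L1cam and Nfasc match ANNATGG or GNNATGG, 3 of 7 sites, against 41.5% of 18509 annotated starts, read on the coding strand only. A purine stands at the third base before the start codon in 6 of 7, all but Nrcam, against 84.2% of annotated starts.

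In GS LRRK2 TG, the values that chose Alcam and Fat3 came from single libraries. Alcam footprints were 4415 normalized reads in the control mean and 4213 and 12563 in the GS LRRK2 TG libraries. One transgenic library thus sat just below the control mean and the other far above it, a log2 ratio of 1.57 between the libraries. Lrrk2 footprints were 7052 and 3320 in the same libraries, in the same order, beside 2524 in the control mean. The library high in Alcam thus had the lower Lrrk2 value of the pair, and a link between the genes was not tested. Alcam RNA was 1882 in the control mean and 1032 and 3053 in the GS LRRK2 TG libraries, on both sides of it. The log2 change of Alcam footprints was 0.92 with both libraries, -0.07 without the library with more reads and 1.51 without the other, and its TE difference was 0.81, -0.18 and 1.39 in the same order. Leaving out the RNA libraries in turn gave Alcam a TE difference of 0.23 or 1.79.

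Markers of other cells were read in the same pair of footprint libraries, in the same order. Vtn of the pericytes, in vessels where Alcam is also made, had 191 normalized reads in the control mean and 209 and 272 in the GS LRRK2 TG libraries. The striatal genes with recovered libraries (13 of the 14 listed), led by Ppp1r1b, summed to 82767 and 117350, and the 6 oligodendrocyte precursor genes, led by Bcan, to 4455 in the control mean and 4291 and 4839. The summed footprints of the 9 astrocyte genes, led by Aldoc, were 30889 and then 31946 and 32697, the 6 microglial genes, led by Csf1r, 2835 and then 3506 and 2542, and the 7 cortical genes, led by Tle4, 8404 and then 8789 and 6769. The 9 interneuron genes, led by Gad1, summed to 31046 and then 32937 and 29342. The 12 oligodendrocyte genes summed to 61152 and then 64486 and 71970, and 12 of 12 lay above 0 with a median change of 0.17. Of the values given, in the library high in Alcam, Vtn and the striatal, precursor, oligodendrocyte and astrocyte sums were thus the higher of the pair. The microglial, cortical and interneuron sums were the lower, and the part of these markers in the Alcam value was not tested. The 2 choroid plexus genes, led by Ttr, summed to 4239 in the control mean and 1239 and 682 in the GS LRRK2 TG libraries, with both libraries low.

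Fat3 had level footprints and divided RNA. Fat3 footprints were 1211 normalized reads in the control mean and 1214 and 1219 in the GS LRRK2 TG libraries, nearly the same value in all. Fat3 RNA was 3904 in the control mean, above 213 in 1 library and below 4468 in the other. The RNA change of -0.74 became 0.19 without the library low in Fat3 and -4.13 without the other, and the TE difference of 0.74 became -0.19 and 4.14.

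Among the other 7 members, the footprints of Cntn1 (4257 in the control mean, 4578 and 4399 in GS LRRK2 TG), Nrcam (3054, then 3309 and 3339) and L1cam (3057, then 3107 and 3305) were above the control mean in both libraries. Ncam1 (5262, then 5168 and 5932), Nfasc (1708, then 1658 and 2126), Ncam2 (1052, then 1121 and 901) and Chl1 (1169, then 1554 and 965) had libraries on both sides of it. Their log2 changes ran from -0.06 for Ncam2 to 0.15 for Nfasc in footprints and from -0.13 for Chl1 to 0.15 for Nfasc in TE. RNA libraries lay on both sides of the control mean for all 9 members. Counting log2 changes of at least 0.5 in size, 1 of 9 members was higher in footprints (Alcam; 0.292% of all transcripts passed this size in either direction), 1 lower in RNA (Fat3; 2.64%) and 2 higher in TE (3.14%), and nothing is read from these counts because the choice of members used this comparison. The median change of the members was 0.08 in footprints, 0.02 in RNA and 0.10 in TE, beside 0.00, -0.02 and 0.02 over all transcripts.

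**Figure D3:**
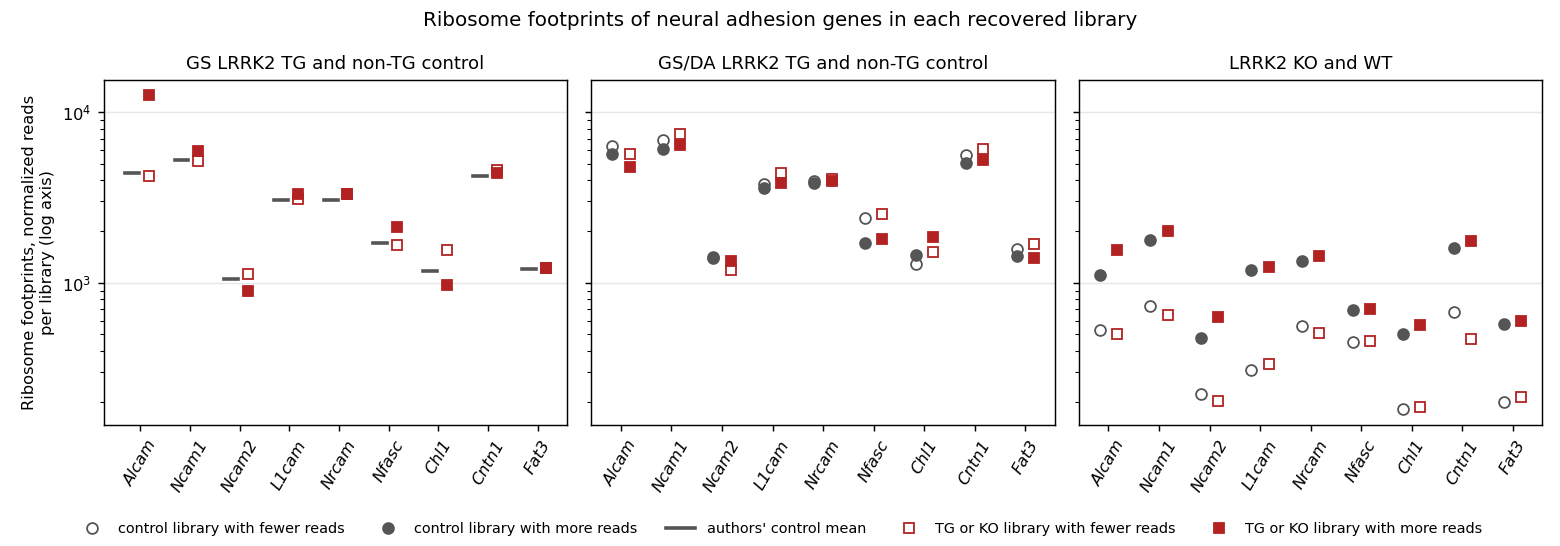
Ribosome footprints of the 9 listed adhesion genes in normalized reads per library (vertical log axis) in the 3 comparisons; circles are control libraries, squares TG or KO libraries, open symbols the library with fewer reads in all, and bars the control mean where libraries could not be recovered. Alcam stands at 4213 and 12563 in the GS LRRK2 TG libraries, and in the LRRK2 KO table the library with more reads is the higher one for every gene in both genotypes.

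In GS/DA LRRK2 TG, the non-TG controls come from the same labelled group as those of GS LRRK2 TG. Fat3 footprints lay near the control and Alcam footprints were lower, at percentiles 65.9 and 6.0 of the changes of all transcripts. Alcam footprints were 6312 and 5685 normalized reads in control and 5691 and 4776 in GS/DA LRRK2 TG libraries. Fat3 footprints were 1577 and 1431 in control and 1691 and 1407 in GS/DA LRRK2 TG. The groups overlapped for both genes, with a log2 change of -0.20 (SE 0.13) for Alcam and 0.04 (SE 0.14) for Fat3. Their TE differences were 0.07 (SE 1.43) and -0.03 (SE 2.57), errors set by the RNA libraries. Without 1 library in turn the TE difference of Fat3 ran from -2.41 to 2.34 and that of Alcam from -1.28 to 1.43. With the replicate block, which pairs the libraries, the differences were the same with an SE of 0.23 for Alcam and 0.26 for Fat3. The GS LRRK2 TG values rest on group means, and the ratio of the deposited means gave -0.15 for Alcam and -0.39 for Fat3 here. The RNA change of Fat3 was 0.07 (SE 2.21, and 0.18 with the block), from -2.31 to 2.45 without 1 library in turn. From the ratio of the deposited means it was 0.43.

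Footprints of the L1 family and the Ncam genes lay near their controls as well. Chl1 footprints were 1283 and 1461 normalized reads in control and 1506 and 1857 in GS/DA LRRK2 TG libraries, and L1cam footprints were 3780 and 3583 in control and 4408 and 3848. Both GS/DA LRRK2 TG libraries lay above both controls for these members, a log2 change of 0.29 (SE 0.15) for Chl1 and 0.16 (SE 0.12) for L1cam. Ncam2 footprints were 1403 and 1420 in control and 1183 and 1344 in GS/DA LRRK2 TG, both below the controls, a log2 change of -0.16 (SE 0.12). With 2 members above and 1 below without overlap, 3 of 9 stood apart in footprints, beside 24.2% of all transcripts, a share near this background. In RNA 0 of 9 stood apart, beside 3.37%. Apart from Alcam and Fat3, given above, the remaining members overlapped in footprints, from 0.04 for Nrcam (3976 and 3837, then 4049 and 3960) to 0.10 for Ncam1 (6908 and 6064, then 7484 and 6417) and Cntn1 (5622 and 5020, then 6113 and 5283), with Nfasc at 0.09 (2401 and 1709, then 2547 and 1819).

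No member passed the test without the replicate block. Limma with Benjamini-Hochberg adjustment called 0 of 9 members in footprints, RNA and TE, beside 0% of all transcripts in each, with an adjusted p of 1 for every member, and 0 members had an unadjusted p under 0.05, beside 141 transcripts in footprints, 0 in RNA and 0 in TE. In simulated data this fit called 56.5% of 200 doubled transcripts in footprints and 0% in TE, so 0 calls in TE do not show an absence of change. Nor do those in footprints, where a doubling is larger than any change of a member. The largest was 0.29, for Chl1, and Lrrk2 with 2.14 was itself not called by this fit. By size, 0 of 9 members reached a log2 change of 0.5 in footprints, RNA or TE, beside 0.739%, 0.927% and 0.216% of all transcripts. With the replicate block, limma called 2.15% of transcripts in footprints and 1 of 9 members, Chl1, with a log2 change of 0.29 (SE 0.07), higher in both library pairs, and an adjusted p of 0.0465 against 1 in the fit without the block, the span of all settings. The block put 4 members at an unadjusted p under 0.05 in footprints and 0 in RNA and TE, beside 1302 of 8385, 120 of 8416 and 22 of 8325 transcripts. These were Chl1, Alcam (p 0.00353, adjusted 0.103), L1cam (p 0.0165, adjusted 0.207) and Ncam2 (p 0.0385, adjusted 0.291). In the matched pairs Alcam footprints went from 6312 to 5691 and from 5685 to 4776, lower in both. In footprints 7 of 9 members lay above 0 and above the median of all transcripts, with a member median of 0.09 beside -0.01. Without the control footprint library with more reads 5 of 9 lay above 0, and without the GS/DA LRRK2 TG footprint library with fewer reads 3 of 9. Markers of other cells moved in the same libraries: the 7 listed cortical projection neuron genes of 13, led by Tle4, summed to 9171 and 10153 footprints in control and 11238 and 13091 in GS/DA LRRK2 TG, with 3 of 7 up by at least 0.5 (Tbr1 1.39, Slc17a7 1.27, Neurod6 1.02). Choroid plexus genes, led by Ttr, summed to 17613 and 1489 in control and 1440 and 5525 in GS/DA LRRK2 TG. Striatal genes with recovered libraries (9 of the 14 listed) summed to 46299 and 41655 in control and 42558 and 33853, with Drd1a at -0.52. Some lists leaned as the members did: 7 of 7 astrocyte genes lay above 0 in footprints with a median of 0.11. So did 6 of 6 microglial genes with a median of 0.10 and 5 of 6 oligodendrocyte precursor genes with a median of 0.10. Others leaned less, with 7 of 9 oligodendrocyte genes (median 0.06) and 4 of 7 interneuron genes (median 0.03) above 0, and Vtn stood at -0.10. The part of these markers in the members' values was not tested.

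LRRK2 KO against WT asks what the absence of LRRK2 does to the same genes. Ncam2 footprints were 222 and 477 normalized reads in WT and 203 and 628 in LRRK2 KO, and Ncam2 RNA was 498 and 310 in WT and 277 and 311 in LRRK2 KO. Chl1 footprints were 181 and 501 in WT and 187 and 566 in LRRK2 KO, and Chl1 RNA was 496 and 173 in WT and 267 and 180 in LRRK2 KO. In both genes the genotypes overlapped in each assay, with the highest RNA value in a WT library. The TE difference was 0.54 (SE 0.81) for Ncam2 and 0.52 (SE 1.02) for Chl1, the only 2 of 9 members at 0.5 or more, beside 4.60% of all transcripts past 0.5 in either direction. From the ratio of the deposited means 3 members passed, Chl1 with 0.72, Ncam2 with 0.71 and Alcam with 0.62. A pseudocount of 50 gave 0 members. The filter of 500, which 6 of 9 passed, also gave 0, but it removed Ncam2 and Chl1, so this 0 does not bear on their values. Without 1 library in turn the TE difference ran from -0.25 to 1.33 for Ncam2 and from -0.26 to 1.29 for Chl1. The Ncam2 value was negative without the LRRK2 KO footprint library with more reads. The Chl1 value was negative without that library (-0.26), without the WT footprint library with fewer reads (-0.19) and without the WT RNA library with fewer reads (-0.22).

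Alcam footprints were 529 and 1114 normalized reads in WT and 498 and 1551 in LRRK2 KO, and Alcam RNA was 1418 and 551 in WT and 942 and 652 in LRRK2 KO. Fat3 footprints were 201 and 573 in WT and 215 and 596 in LRRK2 KO, and Fat3 RNA was 809 and 1006 in WT and 809 and 1230 in LRRK2 KO. The genotypes overlapped for both genes in both assays. The TE difference of Alcam was 0.37 (SE 0.94) and that of Fat3 -0.07 (SE 0.85), each smaller than its error. That error takes footprint and RNA libraries as independent, although each lysate was split for both assays. It therefore need not be the spread of TE between pools.

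The other members gave TE differences of 0.33 for L1cam, 0.26 for Ncam1, 0.13 for Cntn1, 0.10 for Nrcam and -0.02 for Nfasc. L1cam RNA was 1368 and 381 normalized reads in WT and 932 and 392 in LRRK2 KO, the widest RNA gap among the members in both genotypes, and L1cam footprints were 310 and 1187 in WT and 334 and 1230 in LRRK2 KO. Cntn1 RNA was 2044 and 1054 in WT and 1658 and 838, Ncam1 RNA 2244 and 1170 and then 1643 and 1124, and Nrcam RNA 1605 and 835 and then 1381 and 820. These 4 genes share a pattern in which the WT library with fewer reads is highest and the libraries of the genotypes overlap. Nfasc RNA was 1185 and 1851 in WT and 1232 and 1872 in LRRK2 KO, with the order of libraries turned round as in Fat3.

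The footprint libraries of this table stood apart in the members. The library with more reads had the higher footprints for all 9 members in both genotypes, by a member median of 1.26 on the log2 scale in WT and 1.58 in LRRK2 KO. The SD over single transcripts was 0.68 and 0.675. In WT, 1.12% of transcripts had libraries at least as far apart as L1cam and 29.6% as Nfasc, the ends of the range. In LRRK2 KO the ends were Cntn1 with 1.76% and Nfasc with 25%. The member median between RNA libraries was -0.94 in WT and -0.54 in LRRK2 KO. Since the recovered libraries carry no replicate number, which footprint library shares its mice with which RNA library was not inferred. Limma with Benjamini-Hochberg adjustment called 0 of 9 members in footprints, RNA and TE, beside 0% of all transcripts in each, with an adjusted p of 1 for every member, and 0 members had an unadjusted p under 0.05, beside 7, 7 and 2 transcripts. In simulated data this fit called 0% of 200 doubled transcripts in footprints and 0% in TE, and the block 95% and 59.5%, so the counts without the block do not show an absence of change. With the replicate block 0 members were called and 2, Ncam2 and Chl1, had an unadjusted p under 0.05 in RNA, where their log2 change was -0.41 (SE 0.21) and -0.41 (SE 0.20) with an adjusted p of 0.995, beside 413 of 9534 transcripts at an unadjusted p under 0.05 and 12 called in RNA. Under the block 0 members reached an unadjusted p under 0.05 in footprints and TE, beside 252 and 172 transcripts. By size 0 of 9 members passed 0.5 in footprints, beside 1.02% of all transcripts, and 0 of 9 in RNA, beside 1.85%. The libraries of the genotypes stood apart in 0 of 9 members in footprints, beside 12.6%, and in 0 of 9 in RNA, beside 14.1%.

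As a group the members leaned to lower RNA in LRRK2 KO, with 7 of 9 below 0 and below the median of all transcripts, and a member median of -0.25 beside 0.00. This direction turned without the WT RNA library with fewer reads, when 3 of 9 lay below 0 with a member median of 0.21, and without the LRRK2 KO RNA library with more reads 4 of 9 lay below 0 with a median of 0.02. In TE 7 of 9 lay above 0, with a median of 0.26 beside 0.01, and 0 of 9 without the LRRK2 KO footprint library with more reads, 1 of 9 without the WT footprint library with fewer reads, 3 of 9 without the WT RNA library with fewer reads and 5 of 9 without the LRRK2 KO RNA library with more reads. In footprints the median was 0.08 beside 0.02. The 12 listed cortical projection neuron genes of 13 moved the same way: 0 of 12 lay above 0 in RNA, with a median of -0.30, and 12 of 12 in TE, with a median of 0.28. Their summed RNA, led by Slc17a7, was 9029 and 5807 normalized reads in WT and 6778 and 5425 in LRRK2 KO, and the summed RNA of 9 interneuron genes, led by Gad1, was 11505 and 6045 in WT and 8936 and 6441. In both sums, as in most members, the WT library with fewer reads was the highest. The 9 astrocyte genes did the same in RNA, with 12865 and 9616 in WT and 10180 and 9629 in LRRK2 KO, and 2 of 9 lay above 0 with a median of -0.13. In TE they went the other way from the members, with 3 of 9 above 0 and a median of -0.10. The 11 oligodendrocyte genes with recovered libraries had 15573 and 30002 in WT and 15412 and 27387 in LRRK2 KO, highest in the WT library with more reads. Of these, 4 of 11 lay above 0 in RNA, with a median of -0.17. Other sums ran otherwise: 13 striatal genes had 50573 and 39183 in WT and 53144 and 40450 in LRRK2 KO, and 7 microglial genes 1175 and 608 and then 1551 and 606, each highest in an LRRK2 KO library. Their part in the members' values was not tested.

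**Figure D4:**
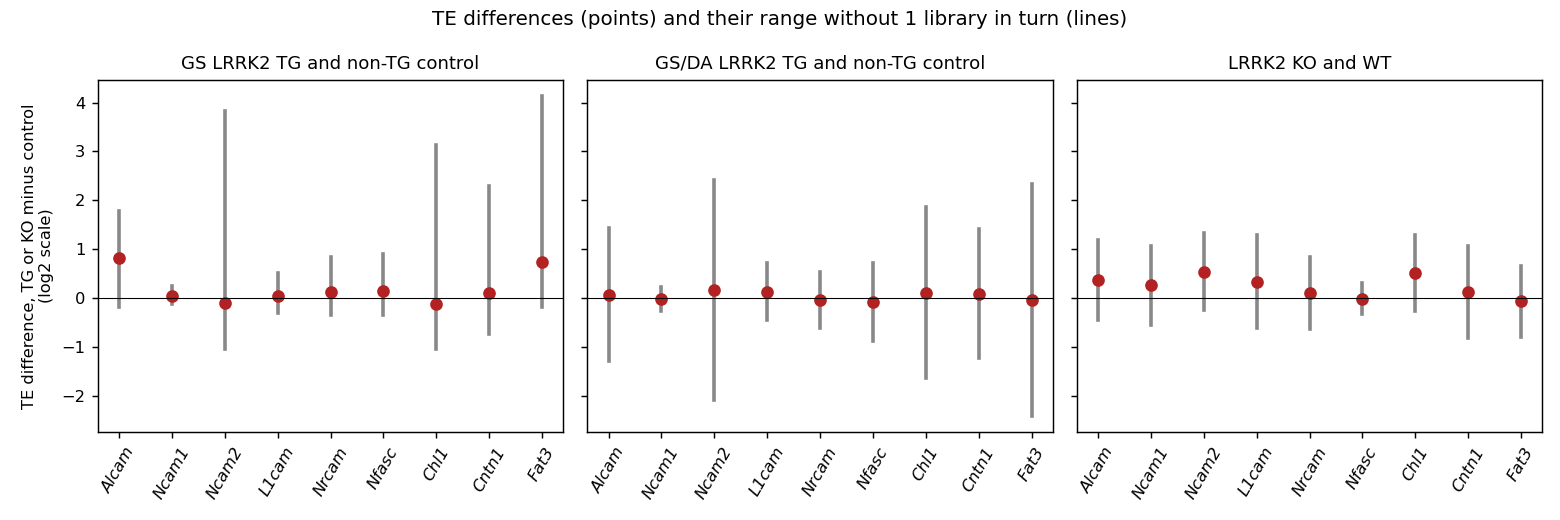
TE difference of each listed adhesion gene on the log2 scale (vertical axis, TG or KO minus control; points) with the range over the values without 1 library in turn (lines) in the 3 comparisons. Each library was left out in 1 assay only, while the library of the other assay from the same lysate stayed in. Each line crosses 0, from -0.18 to 1.79 for Alcam and from -0.19 to 4.14 for Fat3 in GS LRRK2 TG, and from -0.25 to 1.33 for Ncam2 in LRRK2 KO.

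The relatives and partners of the members were counted in TE, at a difference of at least 0.5 in size, which 3.14%, 0.216% and 4.60% of all transcripts passed in GS LRRK2 TG, GS/DA and LRRK2 KO. Of 26 other immunoglobulin adhesion genes 19 are listed in each transgenic table and 20 in the LRRK2 KO table. In GS LRRK2 TG 0 of 19 passed, from -0.35 for Mcam, an endothelial relative of Alcam, to 0.43 for Opcml. In GS/DA LRRK2 TG 0 of 19 passed, from -0.16 for Ntm to 0.23 for Mcam. In LRRK2 KO 1 of 20 was lower, Cadm4 with -0.53, and Thy1 was highest with 0.45.

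Of 27 Fat, cadherin and protocadherin genes, relatives of Fat3, 18 are listed in each transgenic table and 21 in the LRRK2 KO table. None passed in GS LRRK2 TG (0 of 18, Dchs1 -0.35 to Cdh11 0.39) or in GS/DA LRRK2 TG (0 of 17 with recovered libraries, Cdh4 -0.23 to Clstn3 0.07). In LRRK2 KO 1 of 21 was higher, Pcdh20 with 0.54, at control means of 42.4 footprints and 54.4 RNA reads, and Dchs1, a partner of Fat cadherins, was lowest with -0.48.

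Synaptic adhesion genes, 28 of 30 listed in each table, had 0 of 28 past this size in GS LRRK2 TG (Slitrk4 -0.21 to Lrrc4c 0.39) and 0 of 28 in GS/DA LRRK2 TG (Flrt1 -0.33 to Slitrk1 0.30). In LRRK2 KO 2 of 28 were higher, Il1rapl1 with 0.73 and Slitrk2 with 0.61, and Lphn2 was lowest with -0.36. Of 43 genes of ankyrins, spectrins, sheddases and other partners, 27 are listed in each transgenic table and 32 in the LRRK2 KO table. Rdx, which ties membrane proteins to actin, was the 1 of 27 that passed in GS LRRK2 TG, with 0.56. In GS/DA LRRK2 TG 0 of 22 with recovered libraries passed, Ank1 being highest with 0.38. In LRRK2 KO Dpysl2, a partner of tubulin in growing axons, was higher with 0.52 and Vasp, an actin regulator, lower with -0.66. Limma called 0 genes of these 4 lists in TE in GS/DA LRRK2 TG and 0 in LRRK2 KO, with and without the replicate block, where it called 0 of all 8325 and 0 of all 9518 transcripts as well, so these counts set no list apart. The counts of these lists rest on single libraries: without 1 library in turn, the higher genes numbered 0 to 14 of 20 immunoglobulin adhesion genes, 0 to 16 of 21 Fat and cadherin genes, 0 to 20 of 28 synaptic adhesion genes and 1 to 7 of 32 partners in LRRK2 KO, and the lower ones 0 to 12, 0 to 17, 0 to 14 and 3 to 10. In GS LRRK2 TG the higher ones numbered 0 to 9, 0 to 7, 0 to 13 and 1 to 13, and in GS/DA LRRK2 TG 0 to 8, 0 to 7, 0 to 12 and 0 to 8. In GS/DA LRRK2 TG footprints the block gave 1 called immunoglobulin adhesion gene of 19, 2 Fat and cadherin genes of 17, 2 synaptic adhesion genes of 28 and 0 partners of 23, all called ones higher, beside 2.15% of all transcripts.

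The lists of cells were counted in TE in the same way, with the transgenic tables before the LRRK2 KO table, and these counts too moved without 1 library, as for cortical genes in LRRK2 KO with 1 to 6 higher. For oligodendrocyte genes 0 of 12, 0 of 9 and 0 of 11 passed, for oligodendrocyte precursor genes 0 of 6 in each table, for microglial genes 0 of 6, 0 of 6 and 0 of 7, for interneuron genes 0 of 9, 0 of 7 and 0 of 9, and for striatal genes 0 of 14, 0 of 8 and 0 of 13. In GS LRRK2 TG 1 of 7 cortical genes was higher (Slc17a7, 0.67) and 1 of 2 choroid plexus genes lower (Ttr, -0.55, with footprints at -2.43), and 0 of 9 astrocyte genes passed. In LRRK2 KO 2 of 12 cortical genes were higher (Tbr1 0.70, Rorb 0.57), as were 1 of 9 astrocyte genes (Slc1a2, 0.53) and 1 of 2 choroid plexus genes (Ttr, 0.79). In GS/DA LRRK2 TG 0 of 7 cortical, 0 of 7 astrocyte and 0 of 2 choroid plexus genes passed, and Vtn passed in none of the tables.

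The transcripts nearest to Alcam and Fat3 were found by the Euclidean distance over the 6 log2 changes of group means in footprints and RNA, among 1675 transcripts whose group means all reached 500. Fat3 itself lies below this level in the LRRK2 KO table, with footprint means of 387 and 406, so its neighbours are drawn from more abundant transcripts. Nearest to Alcam were Tmsb4x (0.77), Serpine2 (0.79), Tac1 (0.79), Sub1 (0.79) and Gstm5 (0.80), with GS LRRK2 TG footprint changes of 0.15 to 0.38 beside 0.93 for Alcam. Alcam and Fat3 were chosen from changes that enter this distance, so its size is not interpreted. Nearest to Fat3 were Trim37 (0.25), Usp47 (0.26), Nsd1 (0.26), Kif5c (0.29) and Trim44 (0.31).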

How the data were processed

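The authors aligned reads to mm9 with TopHat2 2.0.11 and Bowtie2 2.2.2, counted them over coding sequences, left out transcripts with few reads and deposited DESeq 1.20 group means, a signal normalized in each table separately. The deposited folding energy of the 5′UTR (unit: other, kcal/mol) was used as given. The TE, dTE and z columns hold the authors' own comparison and were not used. A mean of 2 libraries adds whole reads of each, scaled by its size factor, so single libraries could be recovered in 10 of the 12 group mean columns, for 97.9% to 99.9% of transcripts against 0% to 0.455% once the values were shifted. Footprint libraries held 6731150 to 15954039 reads in coding sequences in the transgenic tables and 2831475 to 5952826 in the LRRK2 KO table, and RNA libraries 3132940 to 12829104. In 2 sets of 6000 simulated means the recovery resolved 98.5% to 98.8%, of which 100% were right. Limma was run on simulated libraries in which footprints of 200 transcripts were doubled: without the replicate block it called 56.5% of them in footprints and 0% in TE for the GS/DA table (8325 transcripts) and 0% in both for the LRRK2 KO table (9518), and with it 99.5% and 91.5%, then 95% and 59.5%, with 14, 16, 7 and 3 false calls. The simulation took the matching of libraries as true, and no RNA change was simulated.

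Changes are differences of mean log2 values with a pseudocount of 10 (of the group means in the GS LRRK2 TG table), without a filter on low values. Limma 3.58.1 in R 4.3.3, with a trend of variance on mean and genotype by assay for TE, was fitted over all transcripts with Benjamini-Hochberg adjustment. For TE, footprint and RNA libraries entered as independent, with and without the replicate block. The paper split each lysate for both assays, so every SE of a TE difference need not be its spread between pools. For the replicate block, libraries were matched between genotypes by the difference they share (Spearman's rho 0.74 and -0.978 for footprints and RNA in the GS/DA table, 0.763 and 0.686 in the LRRK2 KO table). Levels per length used the union of coding exons in GENCODE vM1, matched by symbol for 97.1%, 97.1% and 97.0% of transcripts. Members and lists were chosen with earlier results of these data known. Named genes are all members, the list genes with the highest and lowest TE difference (up to 3 at each end, of which the extremes and those past 0.5 are printed) and the 5 transcripts nearest to Alcam and to Fat3. The lists were immunoglobulin, Fat and cadherin and synaptic adhesion genes, partners, and markers of striatal, cortical, choroid plexus, oligodendrocyte, oligodendrocyte precursor, astrocyte, endothelial, microglial and interneuron cells. The alternatives were pseudocounts of 1 and 50, group means of at least 500, centring on the median, the ratio of deposited means, the replicate block, no variance trend, each library left out, a size of 0.25 and the longest coding sequence. Libraries of the ventral midbrain, and any that no group mean holds, have no values in the files and were not analysed here.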

Additional observations from a re-analysis of the deposited data

How the results depend on the processing

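Leaving out 1 library moved the members most: of 540 such values of single members, 143 changed sign, 161 crossed a size of 0.5, and 0 of the 432 tested were called. Of 504 values under the other alternatives, 8 changed sign, 4 crossed 0.5, and 1 of the 315 tested was called. Among members past 0.5, the values of opposite sign were all without 1 library: in GS LRRK2 TG, -0.07 for Alcam footprints (up to 1.51 without another library), -0.18 for Alcam TE (up to 1.79), 0.19 for Fat3 RNA (down to -4.13) and -0.19 for Fat3 TE (up to 4.14), and in LRRK2 KO, -0.25 for Ncam2 TE (up to 1.33) and -0.19, -0.26 and -0.22 for Chl1 TE (up to 1.29). With a size of 0.25 in place of 0.5, 1 member passed in footprints and 2 in RNA for GS/DA LRRK2 TG. For LRRK2 KO, 5 passed in RNA and 5 in TE. The share of all transcripts past 0.25 is not given here, so nothing is read from these counts. The ratio of the deposited means gave 1 in LRRK2 KO RNA and 3 in LRRK2 KO TE. A pseudocount of 50 gave 0 in LRRK2 KO TE, as did the filter of 500, which 9, 9 and 6 of the 9 members passed. That filter removed Ncam2 and Chl1 in the LRRK2 KO table, so its 0 does not bear on their values. For GS/DA LRRK2 TG, the ratio of the deposited means turned the TE difference below 0 for Alcam (0.07 to -0.15), Ncam2 (0.17 to -0.04), Cntn1 (0.09 to -0.17) and Chl1 (0.11 to -0.09). The replicate block gave 1 member called in GS/DA LRRK2 TG footprints. The cause was not tested.

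Without 1 library in turn, members past 0.5 numbered 0 to 1 in footprints, 1 to 6 in RNA and 1 to 6 in TE for GS LRRK2 TG. They numbered 0 to 0, 0 to 8 and 0 to 8 for GS/DA LRRK2 TG, and 0 to 8, 0 to 7 and 1 to 8 for LRRK2 KO. The share of all transcripts past 0.5 in these settings is not given, so these counts are not read as a result about the members. Limma called 0 to 0 members without 1 library in all 6 tests, assuming that a lone library varies like the others, while over all transcripts of GS/DA LRRK2 TG footprints it called 2 to 41 without 1 footprint library. For list counts, 600 of the values stayed within 1.5 times and 310 did not, and the order of levels kept 48 ranks and changed 6 with the longest coding sequence. With 2 libraries per group and 1 residual degree of freedom per assay under the block, the tests rest on variance pooled over transcripts.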
